A study of Mus musculus with 8 samples.

Results

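DNA repair and damage checkpoint genes are described here in sorted mouse keratinocytes, as a set of 40 genes whose products sense DNA damage, halt the cell cycle or mend the lesion. Members were chosen by gene symbol: each was read from the probe set that carries its symbol and no other, and where a gene had several such probe sets the brightest on average over the arrays was taken. That gave 39 of the 40 genes among 19938 named genes, and Xrcc2 was not analysed here. Of the 39 genes, 29 passed the level filter for testing, which asked for at least 2 of the 8 arrays at or above 7.70 on the log2 scale, the median level across named genes and arrays. The other 10, Brca1, Bard1, Palb2, Rad51ap1, Rad54l, Rad54b, Blm, Fancd2, Fanca and Fanci, did not pass and were not tested.

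The cells were back skin keratinocytes of CD1 mice of mixed sex, 8 weeks of age, measured on 8 Affymetrix arrays with 1 array in each of 8 groups. K14Snail mice carry the transcription factor Snail under the keratin 14 promoter, which is active in basal keratinocytes and the outer layer of the hair follicle, and wild type mice were their controls. Magnetic selection was made in each genotype by antibodies against CD34, which marks the bulge of the hair follicle, or against Mts24, which sits on the Plet1 product in the upper follicle. Both the positive and the negative cells were profiled. The 8 groups were thus K14Snail CD34 positive, wild type CD34 positive, K14Snail CD34 negative, wild type CD34 negative, K14Snail Mts24 positive, wild type Mts24 positive, K14Snail Mts24 negative and wild type Mts24 negative. Cells of 11 mice were pooled for each array of the CD34 sort and cells of 9 mice for each array of the Mts24 sort. No group has a second array, so p-values do not measure a spread between replicates. They rest on how far the arrays depart from a model in which fraction and genotype effects add. A difference that runs opposite ways in the genotypes therefore counts as error.

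DNA repair works through separate pathways. Double-strand breaks are mended by homologous recombination, which copies the sister chromatid and is used in S and G2 phase, or by non-homologous end joining, which works throughout the cell cycle. Damaged bases are removed by base excision repair, and the bulky lesions that ultraviolet light makes in skin by nucleotide excision repair. The kinases Atm and Atr sense breaks and stalled forks and act through Chek2 and Chek1 to hold the cell cycle. Many recombination and checkpoint genes, like the genes of DNA replication, are targets of E2F factors and are made in cycling cells.

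The labels were checked on these arrays. Snai1, which encodes Snail, lay between 10.84 and 11.04 in the K14Snail arrays and between 7.86 and 8.16 in the wild type arrays. Cd34 was 13.29 in K14Snail and 13.57 in wild type CD34 positive cells, against 6.27 and 6.12 in CD34 negative cells. It also differed in the Mts24 sort, with 11.56 and 12.12 against 10.51 and 10.03 in negative cells (limma, adjusted p = 0.0107). Plet1 was 12.64 and 12.88 in Mts24 positive and 9.16 and 9.91 in Mts24 negative cells. In the CD34 sort it was 11.74 and 11.82 against 11.22 and 11.15, and was not called. K14Snail stands first in each pair. All 7 basal keratinocyte markers (keratins 5, 14 and 15, integrins, Trp63 and Col17a1) reached 7.70 in every array, with a mean of 12.39 to 12.87 per array, and 0 of 7 endothelial markers did in any array. Markers of other cells moved with the sort: the mean of 9 T cell markers was 7.17 in K14Snail and 7.32 in wild type Mts24 positive cells, against 9.19 in K14Snail and 9.46 in wild type Mts24 negative cells. All 6 tested T cell markers were lower in both positive fractions. The mean of 14 myeloid and Langerhans cell markers was 8.86 in K14Snail and 7.67 in wild type CD34 positive cells, and 8.78 in K14Snail and 7.54 in wild type Mts24 positive cells. In the negative cells it was 8.84 in K14Snail and 9.29 in wild type for CD34, and 9.36 in K14Snail and 9.45 in wild type for Mts24. Of 13 tested markers of this list 5 were called lower and 1 higher in Mts24 positive cells, where 11.7% and 11.1% of all tested genes were. In CD34 positive cells 1 was called lower and 1 higher, where 11.6% and 12.1% of all tested genes were. The mean of 6 suprabasal keratinocyte markers was 11.34 in K14Snail and 12.49 in wild type CD34 positive cells, and 12.41 in K14Snail and 12.63 in wild type Mts24 positive cells. Of 6 tested fibroblast markers 4 were called higher in CD34 positive cells and 1 in Mts24 positive cells, and 0 were called lower in either. Of 6 tested melanocyte markers 1 was called higher in each sort, and 2 were called lower in Mts24 positive cells. The shares of all tested genes are those given above. The part of these cell types in the results below was not tested. In such bulk samples fewer cells that make a transcript and less transcript per cell cannot be told apart.

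Promoter sequences are shown to set their letters beside the members' levels. RefSeq windows on GRCm38.p6, each running from 250 bases before to 50 bases after a transcript start, were matched for 30 of the 40 members. The other members, Exo1 and Ddb2 among them, had no window and were not searched. A core of the E2F motif, spelled TTTCCCGC, TTTGGCGC, TTTGCCGC or TTTCGCGC and read on both strands, was in the windows of 7 of these 30 members (23.3%), against 2.6% of 27025 genes with a window. The 7 members are Bard1, Brca2, Chek2, Lig1, Msh6, Rad51c and Xrcc6. The sites below are written along the gene's own strand, with the motif core in capitals, and Rad51c has 1 in the window of each of its start sites.
Chek2, chr5:110839820-110839849, plus strand: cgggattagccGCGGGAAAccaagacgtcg
Rad51c, chr11:87404477-87404506, minus strand: gtttccagcgcTTTCGCGCctcttgctcta
Rad51c, chr11:87404941-87404970, minus strand: cccccgcgaggGCGGGAAAagcaaggggtc
Brca2, chr5:150522442-150522471, plus strand: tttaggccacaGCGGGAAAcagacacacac
Lig1, chr7:13278841-13278870, plus strand: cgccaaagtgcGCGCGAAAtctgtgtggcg
Bard1, chr1:71103163-71103192, minus strand: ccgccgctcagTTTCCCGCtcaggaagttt
Msh6, chr17:87975054-87975083, plus strand: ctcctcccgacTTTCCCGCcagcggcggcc
Xrcc6, chr15:82016312-82016341, plus strand: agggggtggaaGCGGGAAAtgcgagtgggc

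Counted in bases from the transcript start, with negative positions upstream, the motif begins at -152 in Chek2, at -168 in Brca2 and at 27 in Lig1. The letters CCAAT, in either orientation, were in the windows of 16 of the 30 members (53.3%), against 41.1% of all genes with a window. The cell cycle homology element TTTGAA, in either orientation, was in 1 of the 30, Bard1, against 20.2% of all genes. For 3 genes that the comparisons below turn on, 240 bases upstream are printed, ending 11 bases before the start, with CCAAT or its reverse in capitals. Chek1 and Lig3 held none of the 3 motifs, and Ogg1 held CCAAT in reverse at 2 places. These matches describe the letters of the windows and do not show that a factor binds there.
Chek1, chr9:36726669-36726908, minus strand: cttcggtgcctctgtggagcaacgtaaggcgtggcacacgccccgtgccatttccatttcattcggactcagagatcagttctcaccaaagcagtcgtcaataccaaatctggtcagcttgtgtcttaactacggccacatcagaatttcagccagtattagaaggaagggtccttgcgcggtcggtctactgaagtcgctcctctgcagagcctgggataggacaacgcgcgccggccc
Ogg1, chr6:113326726-113326965, plus strand: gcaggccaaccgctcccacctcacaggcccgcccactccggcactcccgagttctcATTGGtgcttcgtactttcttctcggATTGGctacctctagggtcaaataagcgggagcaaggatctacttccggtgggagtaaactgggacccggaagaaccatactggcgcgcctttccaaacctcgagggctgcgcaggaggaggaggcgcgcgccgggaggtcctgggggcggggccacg
Lig3, chr11:82780859-82781098, plus strand: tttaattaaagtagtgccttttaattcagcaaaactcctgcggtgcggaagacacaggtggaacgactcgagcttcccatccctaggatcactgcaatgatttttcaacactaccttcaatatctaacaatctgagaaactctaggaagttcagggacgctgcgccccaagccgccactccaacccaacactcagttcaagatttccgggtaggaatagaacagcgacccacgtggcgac

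The members differed in how far they moved over the 8 arrays. The gap between a gene's highest and lowest array was widest in Chek1 at 2.09 on the log2 scale, followed by Neil3 at 1.70, Fancd2 at 1.46, Exo1 at 1.45 and Lig1 at 1.44. It was narrowest in Xpa at 0.24, Xrcc1 at 0.26, Ercc2 at 0.30 and Nbn at 0.32. The median gap over the 39 members was 0.67, beside 0.47 over all named genes. Among genes that passed the filter the order turned, with 0.54 over the 29 members and 0.58 over all 10720. By pathway the median gap was 1.16 in the 3 Fanconi anaemia genes, 1.06 in the 11 homologous recombination genes, 0.78 in the 6 sensing and checkpoint genes, and 0.70 in the 8 base excision and single-strand break repair genes. It was 0.46 in the 4 end joining genes and 0.43 in the 5 nucleotide excision repair genes.

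**Figure D1:**
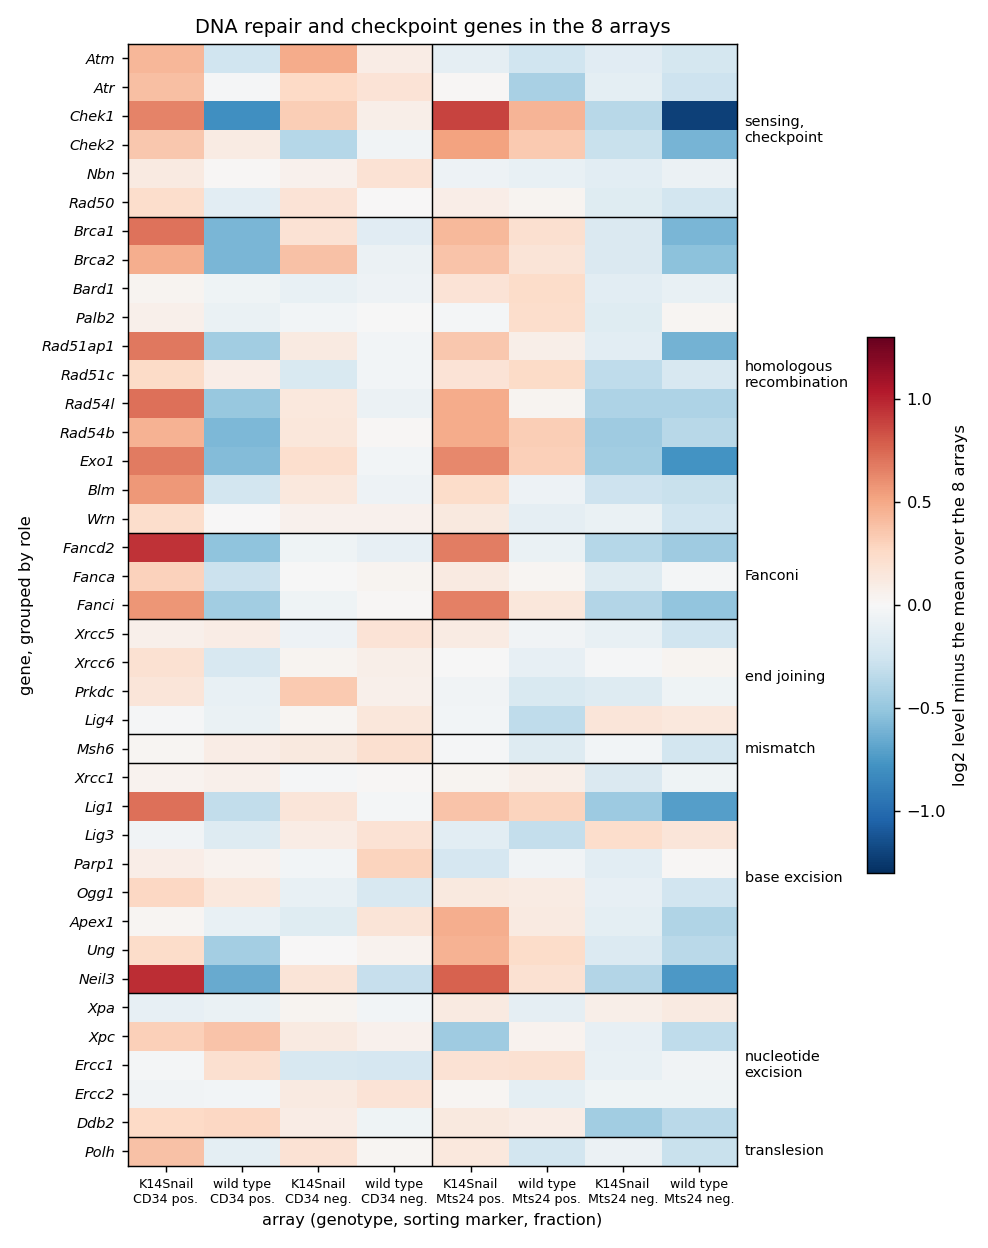
Level of each of the 39 members in each of the 8 arrays, with genes down the page by pathway, arrays across, and colour giving the log2 level minus that gene's mean over the 8 arrays. Chek1, Neil3, Fancd2, Exo1 and Lig1 change colour most across arrays, and Xpa, Xrcc1, Ercc2 and Nbn least.

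Mts24 positive cells were set against Mts24 negative cells of the same genotype, the negative fraction being the control in the design. The checkpoint kinases Chek1 and Chek2, the nuclease Exo1, the recombination protein Rad51c and the ultraviolet damage sensor Ddb2 were higher in Mts24 positive cells, by 1.40-fold to 2.73-fold, and the DNA ligase Lig3 was lower. Of the 29 tested members 5 were called higher, where 11.1% of all tested genes were, and 1 was called lower, where 11.7% were (limma, adjusted p under 0.05). Exo1, Chek2 and Rad51c reached 7.70 in only 3 of the 8 arrays, all of them positive fractions, so they entered the test through the arrays in which they were high and their count supports nothing by itself. The median difference was 0.18 over the 29 tested members and 0.02 over all tested genes.

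Chek1, the kinase that Atr activates at stalled forks, stood at 9.12 in K14Snail and 8.69 in wild type Mts24 positive cells, against 7.88 in K14Snail and 7.04 in wild type Mts24 negative cells. Both positive arrays lay above both negative arrays, and the wild type negative array was the lowest. That array lay under the filter level, so the size of the difference depends in part on the background. The difference was 1.45 ± 0.29 on the log2 scale (2.73-fold, limma moderated standard error, adjusted p = 0.0206). Chek2, the kinase downstream of Atm, stood at 7.90 in K14Snail and 7.71 in wild type positive cells, against 7.08 in K14Snail and 6.77 in wild type negative cells. Its difference was 0.88 ± 0.18 (1.84-fold, adjusted p = 0.0217), with both negative arrays under the filter level, where the size of a difference depends on the background. The other 4 sensing genes, Atm, Atr, Nbn and Rad50, differed by between 0.00 and 0.26 in size, and none of the 4 passed.

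Exo1, a nuclease that trims DNA ends in recombination and mismatch repair, had 8.07 in K14Snail and 7.75 in wild type Mts24 positive cells, against 6.99 in K14Snail and 6.66 in wild type Mts24 negative cells. Both positive arrays were above the filter level and both negative arrays under it. The difference was 1.09 ± 0.27 (2.12-fold, adjusted p = 0.0370). Rad51c, a homologous recombination gene, had 7.72 in K14Snail and 7.80 in wild type positive cells, against 7.21 in K14Snail and 7.34 in wild type negative cells, a difference of 0.48 ± 0.11 (1.40-fold, adjusted p = 0.0310). Brca2, a breast cancer susceptibility gene of homologous recombination, had 8.07 and 7.86 in K14Snail and wild type positive cells, against 7.50 and 7.16 in K14Snail and wild type negative cells. Its groups did not overlap, yet its difference of 0.63 did not pass (adjusted p = 0.103), and neither did that of the helicase Wrn at 0.18.

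Ddb2, which recognises ultraviolet photoproducts for nucleotide excision repair, had 8.22 in K14Snail and 8.19 in wild type Mts24 positive cells, against 7.65 in K14Snail and 7.75 in wild type Mts24 negative cells. The gap ran the same way in either genotype, and the difference was 0.51 ± 0.10 (1.43-fold, adjusted p = 0.0198). The other 4 nucleotide excision repair genes did not pass: Ercc1, part of the nuclease that cuts on the 5′ side of a lesion, differed by 0.27, Xpa by -0.10, and Xpc and Ercc2 by 0.01 each.

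Among the base excision and single-strand break repair genes, Lig3, the ligase that seals breaks with Xrcc1 and works in mitochondria, was lower in Mts24 positive cells. It had 9.81 in K14Snail and 9.63 in wild type positive cells, against 10.17 in K14Snail and 10.10 in wild type negative cells. Both positive arrays lay below both negative arrays, a difference of -0.42 ± 0.10 (adjusted p = 0.0369). Lig1, the ligase that joins Okazaki fragments, ran the other way, with 9.16 in K14Snail and 9.08 in wild type positive cells, against 8.32 in K14Snail and 8.07 in wild type negative cells, and just missed the threshold (0.92 ± 0.25, adjusted p = 0.0510). The glycosylases that remove damaged bases also missed it: Neil3 differed by 1.05 ± 0.32 (adjusted p = 0.0681), Ung by 0.61 (adjusted p = 0.0595) and Ogg1 by 0.29 (adjusted p = 0.0593). Apex1, the endonuclease that cuts at the abasic site they leave, differed by 0.56 (adjusted p = 0.0879), while Parp1 (-0.07) and the scaffold Xrcc1 (0.17) also did not pass. Of these genes, Neil3 reached the filter level only in the K14Snail CD34 positive and K14Snail Mts24 positive arrays. It thus entered the test of either sort through positive arrays in which it was high, and its p-values there support nothing by themselves. In end joining, Lig4 differed by -0.33 (adjusted p = 0.116), and the Ku subunits Xrcc5 (0.21) and Xrcc6 (-0.06) and the kinase Prkdc (-0.01) did not pass either.

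Counted over all 39 members without a test, 24 had both Mts24 positive arrays above both negative arrays, where 25.4% of all named genes did, and 2, Lig3 and Lig4, had both below, where 24.2% did. Among genes that passed the filter 15 of the 29 members had both above, where 32.1% of the genes did, and 2 had both below, where 31.1% did. The 24 include 9 of the 10 members that failed the filter, all but Palb2. Fanci, a partner of Fancd2 at interstrand crosslinks, had 7.58 in K14Snail and 7.08 in wild type positive cells, against 6.56 in K14Snail and 6.42 in wild type negative cells. Rad54b, which remodels DNA in strand exchange, had 7.31 and 7.15 in K14Snail and wild type positive cells, against 6.37 and 6.46 in K14Snail and wild type negative cells. These levels lie under 7.70, and with no filter the smallest adjusted p among these 10 genes was 0.0780, for Fanci.

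The 6 Mts24 calls rest on 4 arrays. With any 1 of the Mts24 arrays left out, which leaves a lone pair and 2 residual degrees of freedom, none of the 6 passed: adjusted p ran from 0.0643 to 0.193 over the 4 omissions, although the sign stayed the same. Without either CD34 negative array, Exo1 (adjusted p = 0.0684) and Rad51c (adjusted p = 0.0598) did not pass. Without either CD34 positive array 9 members were called higher, Lig1, Neil3, Brca2 and Ung joining the 5. Over all tested genes the count called higher rose as well, from 1195 to 1435.

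**Figure D2:**
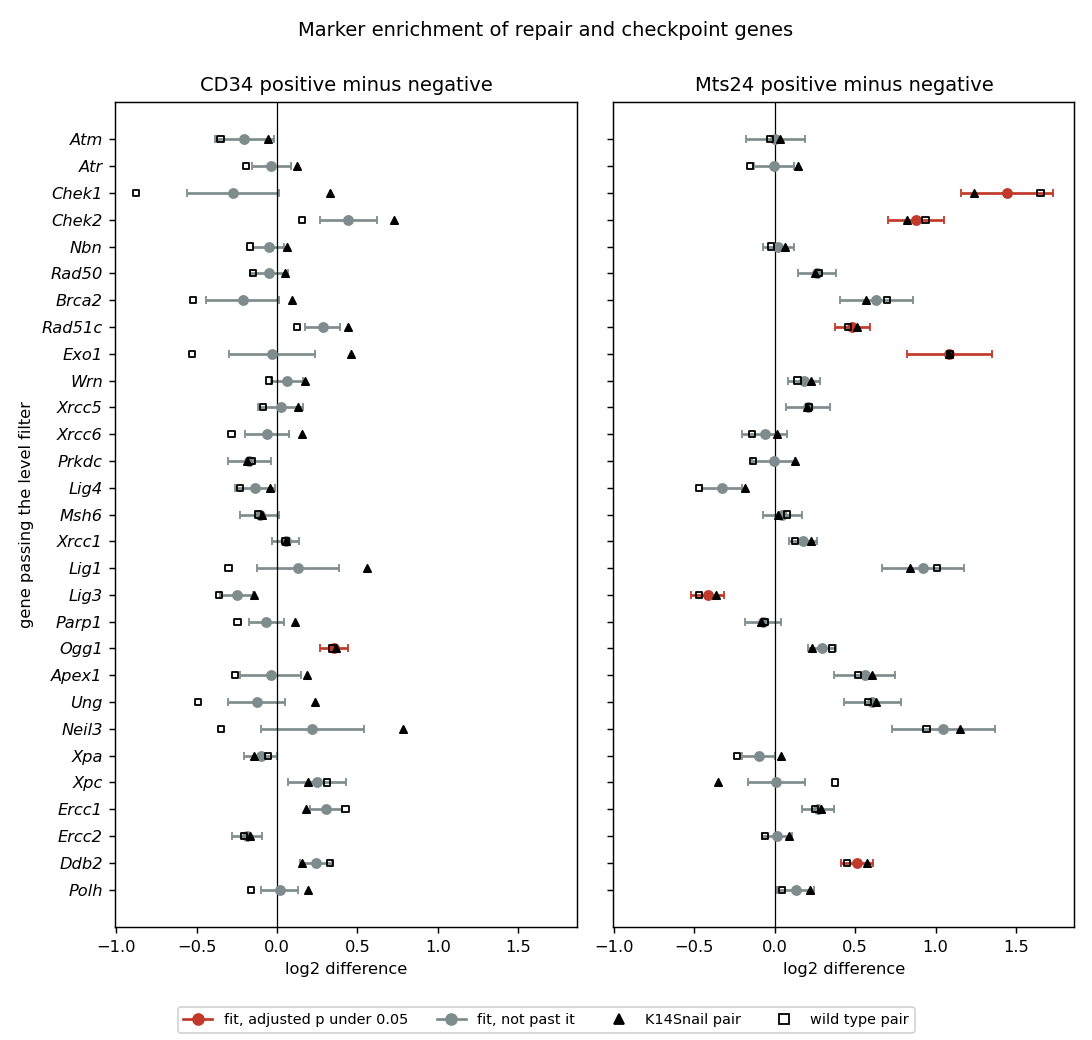
Positive minus negative log2 difference for each of the 29 tested members in the CD34 sort (left) and the Mts24 sort (right), with triangles for the K14Snail pair, squares for the wild type pair, and circles with bars for the limma estimate and its standard error, red where called. In the Mts24 sort both symbols lie to the right of 0 for Chek1, Exo1 and Chek2, and in the CD34 sort the triangle of Chek1 lies at 0.33 and its square at -0.87.

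The CD34 sort was read in the same way, positive cells against negative cells. Of the 29 tested members 1 was called higher, Ogg1, where 12.1% of all tested genes were, and 0 were called lower, where 11.6% were. In limma 4 of the 29, Chek2, Rad51c, Ogg1 and Ercc1, had an unadjusted p under 0.05, where 36.7% of all tested genes did. Ogg1, the glycosylase that removes oxidised guanine, had 8.67 in K14Snail and 8.54 in wild type CD34 positive cells, against 8.31 in K14Snail and 8.19 in wild type CD34 negative cells. Both positive arrays were above both negative arrays, a difference of 0.35 ± 0.09 (1.28-fold, adjusted p = 0.0329). The call ended without any 1 of the CD34 arrays (adjusted p = 0.0827 to 0.151), without either Mts24 negative array (adjusted p = 0.0723), with no filter (0.0533), after quantile normalization (0.0673) and after median centring (0.0544).

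In this sort the genotypes ran apart. The CD34 positive minus negative difference was above 0 in 32 of 39 members in K14Snail, with a median of 0.18, and in 8 of 39 in wild type, with a median of -0.20. Over all named genes the medians were -0.04 in K14Snail and 0.01 in wild type. In 24 of the 39 the gene was higher in the CD34 positive array of K14Snail and lower in that of wild type, a pattern that 12.8% of all named genes showed. Among genes that passed the filter 15 of the 29 members showed it, where 15.1% of the genes did. Chek1 differed by 0.33 in K14Snail and by -0.87 in wild type, Rad54b by 0.30 and -0.60, and Exo1 by 0.46 and -0.53, each with K14Snail given first. Fancd2, the protein that is monoubiquitinated at crosslinks, differed by 1.00 in K14Snail and by -0.42 in wild type. No error can be attached to such a difference, since each comes from a single pair of arrays.

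The genes that were called in the Mts24 sort did not all follow that pattern. Chek2 was higher in CD34 positive cells by 0.73 in K14Snail and by 0.16 in wild type. Rad51c was higher by 0.44 in K14Snail and by 0.12 in wild type. Ddb2 had 8.35 in K14Snail and 8.37 in wild type CD34 positive cells, against 8.19 in K14Snail and 8.04 in wild type CD34 negative cells. Lig3 was lower in CD34 positive cells of either genotype, by -0.14 in K14Snail and by -0.36 in wild type. None of these 4 passed the CD34 test.

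The enrichment in the CD34 sort minus that in the Mts24 sort was tested directly. Of the 29 members 0 were called, where 2.38% of all tested genes were called higher and 1.7% lower, and 4 had an unadjusted p under 0.05 (Chek1, Brca2, Exo1 and Ung), where 17.9% of all tested genes did. Chek1 had the largest difference among the members, -1.72 ± 0.40 (adjusted p = 0.0910), and Exo1 differed by -1.12 (adjusted p = 0.197). The median was -0.16 over the 29 members and -0.02 over all tested genes. Without the K14Snail CD34 positive array the differences of Brca2, Chek1, Exo1, Lig1, Neil3 and Ung stayed below 0. The CD34 side then rests mainly on the wild type pair.

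K14Snail and wild type were then set against each other over the 4 fractions. None of the 29 tested members was called, where 1.14% of all tested genes were called higher and 0.914% lower. In limma 9 of the 29 had an unadjusted p under 0.05, Atm, Atr, Chek1, Brca2, Exo1, Wrn, Lig1, Neil3 and Polh, where 25.9% of all tested genes did. The median difference was 0.10 over the 29 members and 0.025 over all tested genes. Over all 39, K14Snail was the higher array in all 4 fractions in 16 members, where 12.3% of all named genes were, and the lower one in all 4 in 1 member, Xrcc1, where 13.0% were. Among genes that passed the filter it was higher in all 4 in 11 of the 29 members, where 18.9% of the genes were. It was lower in all 4 in 1 of the 29, where 12.6% were.

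The smallest adjusted p was that of Polh, the polymerase that copies past ultraviolet damage. It had 9.62, 9.43, 9.38 and 9.16 in K14Snail CD34 positive, CD34 negative, Mts24 positive and Mts24 negative cells, against 9.11, 9.27, 9.00 and 8.95 in the same fractions of wild type. K14Snail was higher in each of the 4 pairs, by 0.32 ± 0.07 (adjusted p = 0.0767). Chek1 was higher in K14Snail in 4 of 4 pairs too, with a mean difference of 0.74 ± 0.17 (adjusted p = 0.0838), but its pairs were uneven, 1.44, 0.24, 0.43 and 0.85 in the same order of fractions. Neil3 differed by 0.75 ± 0.19 (adjusted p = 0.100) and Brca2 by 0.52 (adjusted p = 0.105). Neil3 reached 7.70 only in the K14Snail CD34 positive and K14Snail Mts24 positive arrays and so entered this test, and that of the interaction, through arrays of K14Snail.

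The kinases at the head of the pathways did not pass either. Atr had 8.70, 8.57, 8.32 and 8.18 in K14Snail CD34 positive, CD34 negative, Mts24 positive and Mts24 negative cells, against 8.29, 8.49, 7.88 and 8.04 in wild type, a difference of 0.27 (adjusted p = 0.111). Atm had 8.96, 9.01, 8.41 and 8.38 in the K14Snail fractions in that order, against 8.27, 8.62, 8.27 and 8.30 in wild type, a difference of 0.32 (adjusted p = 0.149). The gap in Atm was 0.69 and 0.39 in the CD34 sort and 0.14 and 0.07 in the Mts24 sort. End joining genes showed little: Xrcc5 differed by 0.01, Lig4 by 0.07, Xrcc6 by 0.11 and Prkdc by 0.14, and none passed.

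Within single fractions, where each genotype has 1 array, a log2 difference of at least 1 was counted without a test. In CD34 positive cells 11 of the 39 members were at least 1 higher in K14Snail than in wild type, where 1.87% of all named genes were, and 0 were at least 1 lower, where 1.4% were. Among genes that passed the filter 5 of the 29 members were at least 1 higher, where 2.8% of the genes were, and 0 were at least 1 lower, where 2.15% were. In CD34 negative, Mts24 positive and Mts24 negative cells 0 members were at least 1 higher, where 0.286%, 0.963% and 0.316% of all named genes were. The median over the 39 members was 0.26 in CD34 positive, 0.05 in CD34 negative, 0.16 in Mts24 positive and 0.08 in Mts24 negative cells.

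The 11 genes act in crosslink repair, recombination, replication or the S phase checkpoint. Neil3, a glycosylase that also opens crosslinks, had 7.93 in K14Snail and 6.32 in wild type CD34 positive cells, a difference of 1.61. Fancd2 had 7.74 in K14Snail and 6.28 in wild type, a difference of 1.46, and Fanci had 7.51 and 6.49. Chek1 had 8.89 in K14Snail and 7.45 in wild type, a difference of 1.44.

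In the recombination genes the gap was of like size. Brca1, which promotes end resection, had 7.57 in K14Snail and 6.27 in wild type CD34 positive cells. Exo1 had 8.12 in K14Snail and 6.88 in wild type. The motor protein Rad54l had 7.90 in K14Snail and 6.69 in wild type.

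Rad51ap1, also of homologous recombination, had 6.94 in K14Snail and 5.80 in wild type CD34 positive cells. Brca2 had 8.17 in K14Snail and 7.10 in wild type, Rad54b had 7.28 and 6.24, and Lig1 had 9.51 and 8.47, each with K14Snail first. In 10 of the 11 the wild type array was under 7.70, Lig1 being the exception, so most of these sizes depend on the background. In wild type, the CD34 positive array was the lowest of the 4 CD34 arrays in 25 of the 39 members, where 24.8% of all named genes had it lowest. In 24 of the 39 the K14Snail CD34 positive array was the highest of the 4, where 22.8% did. Among genes that passed the filter the wild type one was lowest in 16 of the 29 members, where 30.9% of the genes had it lowest. The K14Snail one was highest in 14 of the 29, where 28.2% had it highest.

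Other members differed less in the same pair of arrays. Ercc1 was lower in K14Snail, with 9.40 in K14Snail and 9.64 in wild type CD34 positive cells. Xpc had 9.02 in K14Snail and 9.09 in wild type, and Xpa had 9.14 and 9.16. Xrcc5 had 9.45 in K14Snail and 9.48 in wild type, and Parp1 had 8.99 and 8.95. Bard1, the partner of Brca1, depended on the probe set: the one used gave 7.35 in K14Snail and 7.27 in wild type, another gave 6.72 and 6.19, and a further one 7.72 and 6.61. Nbn, whose product brings Atm to breaks, also has a second probe set, which gave 7.41 in K14Snail and 8.08 in wild type Mts24 positive cells where the one used gave 9.23 and 9.20.

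**Figure D3:**
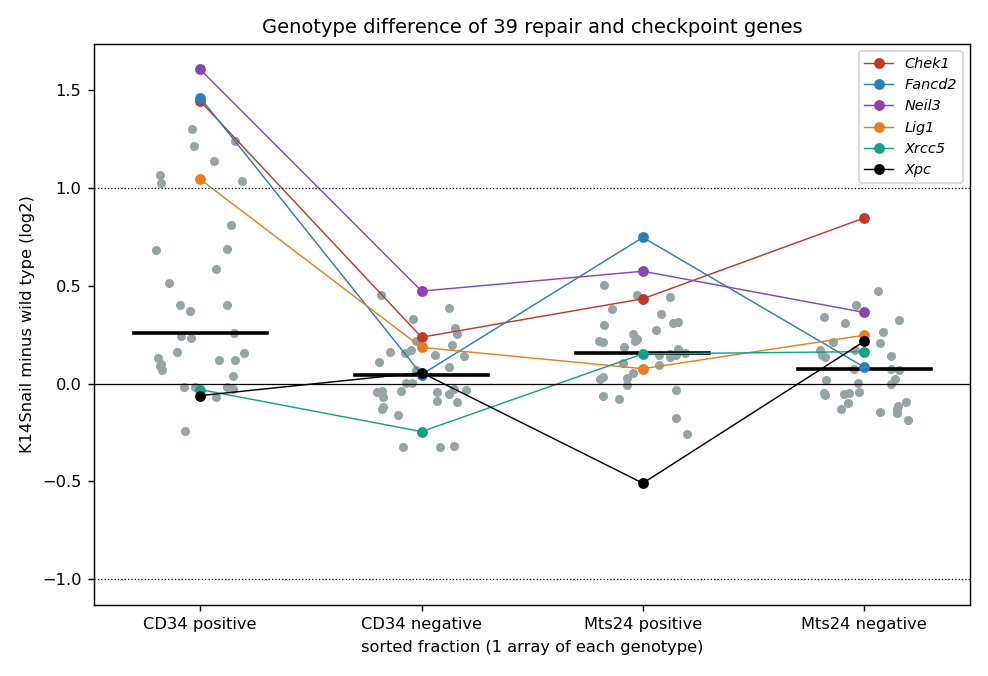
K14Snail minus wild type log2 difference of each of the 39 members (points) in each of the 4 fractions, from 1 array per genotype, with black bars at the median, dotted lines at a difference of 1 either way and coloured lines joining the values of 6 named genes. Points above 1 are seen in CD34 positive cells and in no other fraction, with Neil3 at 1.61 and Chek1 at 1.44 among them.

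Whether the genotype difference itself changed between positive and negative fractions was tested with an interaction term over both sorts. Of the 29 members 0 were called, where 0.0% of all tested genes were, and 0 had an unadjusted p under 0.05 in limma, where 7.88% of all tested genes did. The lowest adjusted p among the members was 0.672, for Atr, with a difference of 0.31. Neil3 had the largest difference, 0.67, which did not pass (adjusted p = 0.786). Without either Mts24 positive array the differences of Exo1, Lig1 and Neil3 stayed above 0. With all arrays this term averages over both sorts. Without a Mts24 positive array it sets the genotype difference in CD34 positive cells against that in the negative fractions alone, with 1 residual degree of freedom. Whether the genotype difference in CD34 positive cells departs from that in the other 3 fractions together was not tested.

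Levels of several members ran alongside those of DNA replication genes. The mean of 29 replication genes (such as the Mcm helicase subunits and Pcna) was 9.41 in K14Snail and 8.49 in wild type CD34 positive cells, 9.09 in K14Snail and 9.07 in wild type CD34 negative cells, 9.45 and 9.22 in K14Snail and wild type Mts24 positive cells, and 8.72 and 8.42 in K14Snail and wild type Mts24 negative cells. Over the 8 arrays 15 of the 39 members correlated with that mean at r of at least 0.8, where 3.18% of all named genes did, and the median r was 0.66 for the members and -0.09 for all named genes. These are descriptions over 8 arrays that share fractions, genotypes and pools. Chek1 and Exo1 had r = 0.99 each and Ung, which removes uracil from DNA, 0.97. Fanci, Rad54b, Brca1, Brca2, Rad51ap1, Lig1, Neil3, Rad54l, Rad50, Fancd2, Blm and Fanca made up the rest of the 15. Of the 7 members with an E2F core in their window, Brca2 and Lig1 (r = 0.94 each) are among the 15, and Chek2 (0.72), Bard1 (0.66), Rad51c (0.61), Xrcc6 (0.46) and Msh6 (0.23) are not, while Chek1 has no such core in its window. Exo1 had no window, so not all of the 15 were searched. The same 15 were those at r of at least 0.8 with the mean of 21 mitosis genes.

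At the other end Lig3 and Lig4 (r = -0.36 each), Xpa (-0.23), Parp1 (-0.12) and Xpc (-0.03) lay below 0. Among the 6 Mts24 calls, Chek2 (0.72), Rad51c (0.61), Ddb2 (0.51) and Lig3 were thus not among the 15. In the Mts24 sort 12 of 28 tested replication genes were called higher and 0 lower, with a median difference of 0.85. Of 19 tested mitosis genes 2, Aurkb and Ube2c, were called higher, with a median of 1.38. Of all tested genes 11.1% were called higher and 11.7% lower in that sort, so the share of mitosis genes called was near that of all tested genes. In CD34 positive cells the median K14Snail minus wild type difference was 0.94 in the replication genes and 1.97 in the mitosis genes, beside 0.26 in the 39 repair and checkpoint members.

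**Figure D4:**
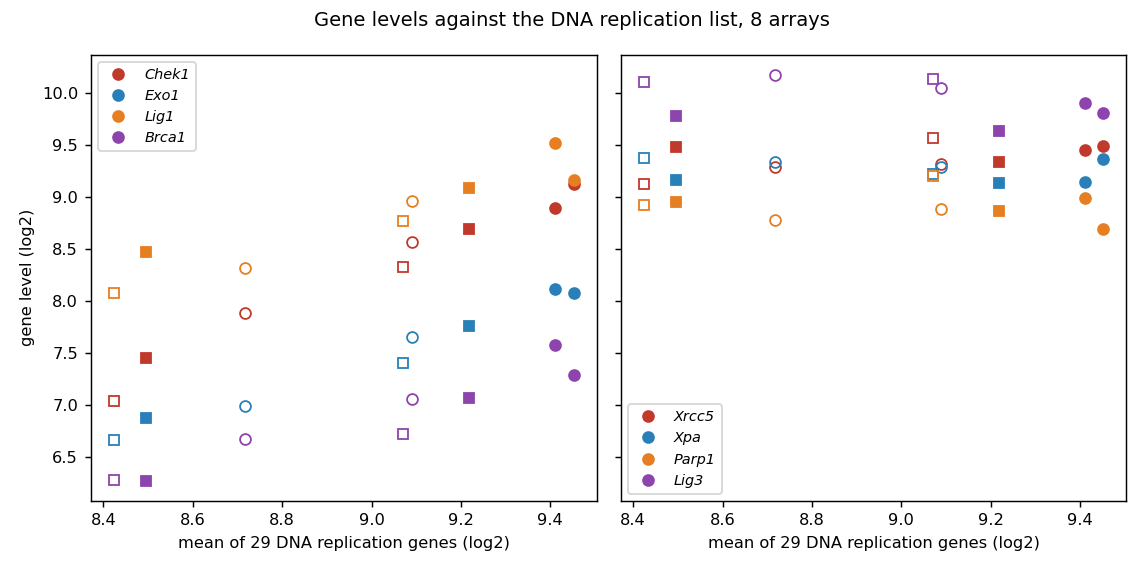
Log2 level of Chek1, Exo1, Lig1 and Brca1 (left) and of Xrcc5, Xpa, Parp1 and Lig3 (right) against the mean log2 level of 29 DNA replication genes in the same array. Circles are K14Snail and squares wild type arrays, filled for positive and open for negative fractions. The 4 genes on the left climb with the replication mean, and on the right Lig3 has its 4 highest levels in the negative fractions.

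A further 86 repair and checkpoint genes outside the 40 were on the array, of which 73 were tested. In the Mts24 sort 4 of the 73 were called higher: Rad18, the ubiquitin ligase that starts translesion synthesis (0.92 ± 0.18, limma adjusted p = 0.0197), the single-strand binding subunit Rpa2 (0.82 ± 0.15), Smc6 (0.45) and the alkylguanine transferase Mgmt (0.44). In the same sort 2 of the 73 were called lower, the Fanconi core complex gene Fancb (-0.86) and Polb, the gap-filling polymerase of base excision repair (-0.79). In the CD34 sort 1 was called higher, the nucleotide excision repair gene Cetn2 (0.49), and 4 lower: the mitosis-inhibiting kinase Wee1 (-1.14 ± 0.23, adjusted p = 0.0197), Polb (-1.01), Fancb (-0.97) and Mcm9 (-0.39). Of all tested genes 11.1% were called higher and 11.7% lower in the Mts24 sort, and 12.1% higher and 11.6% lower in the CD34 sort. Polb had 9.22 and 9.57 in K14Snail and wild type CD34 positive cells, against 10.36 and 10.44 in K14Snail and wild type CD34 negative cells. Fancb reached 7.70 in the 4 negative arrays alone and Mgmt in the K14Snail positive arrays alone, so each entered the test through the arrays in which it was high. None of the 73 was called between genotypes, in the difference between sorts or in the interaction. Of 15 tested targets of p53, which the checkpoint kinases activate, 1 was called higher and 6 lower in Mts24 positive cells, 1 higher and 5 lower in CD34 positive cells, and 0 between genotypes, where 2.05% of all tested genes were called in either direction.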

How the data were processed

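Expression was measured on 8 arrays, 1 per group, and the number of arrays limits the precision. The authors deposited 1 log2 value for each probe set and array, produced by RMA per the submitters' processing notes, which corrects background, normalizes arrays and summarizes probes. Neither its version nor a genome build is given in the sources used here. That the scale is log2 was inferred from the range of 3.04 to 14.49, with array medians of 7.32 to 7.42 and 0 identical pairs of arrays. Total RNA was amplified and biotin labelled, per the labels' protocols.

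Of 28874 probe sets, the platform annotation gives 21789 a single gene symbol, 1621 several and 5464 none, and those with several or none were left out. For genes with more than 1 probe set (999 genes) the brightest was used, leaving 19938 genes, of which 10720 passed the filter (at least 2 arrays at 7.70). All genes were fitted together in limma 3.58.1 (R 4.3.3, statmod 1.5.0) with the fraction and the genotype as terms and the pool, a genotype and marker, as a random block (duplicateCorrelation, -0.175). This left 3 residual degrees of freedom, and 2 with the interaction term, which used the same correlation. The pool block takes the positive and negative cells of a pool to be from the same mice, as their equal pool sizes allow, which the labels do not state. Because that correlation is negative, the block shrinks the errors of genotype differences and widens those of marker differences. Benjamini-Hochberg adjustment ran over all tested genes with a threshold of 0.05, and errors are moderated standard errors. On simulated data for the CD34 comparison over 10720 genes, 88 of 100 genes changed by 1 log2 and 99 of 100 changed by 2 log2 were called, with 5 false calls. The simulated noise was independent between arrays, with each gene's fitted spread around its mean. It held no pool correlation and no genotype or fraction effect besides the added change. These counts check the fit and do not give its power on the real arrays.

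The members and the lists of other repair, replication, mitosis, p53 target and cell type marker genes were chosen with earlier results of these data known. Genes named in the text are the members, and the other repair genes that passed a test. Also named are Snai1, the sort markers, some cell type markers, examples of the replication list, and the mitosis genes called in the Mts24 sort. Alternatives tried were no pool block, a fixed pool block, no filter or one at 4 arrays, quantile normalization, median centring, the mean of probe sets, a trend in the prior, and leaving out each array. Tables and plots used Python 3.11.15, pandas 2.3.3, numpy 2.4.6, scipy 1.17.1 and matplotlib 3.10.9. Promoter windows came from the RefSeq table on GRCm38.p6.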

Additional observations from a re-analysis of the deposited data

Results flagged for a closer look

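In 24 of the 39 members the CD34 positive array lay above the CD34 negative array in K14Snail and below it in wild type, so that the only pair of K14Snail and the only pair of wild type moved in opposite directions. The difference between genotypes within the CD34 sort alone was not tested, since each genotype has 1 pair of arrays there. Chek1, Brca1, Brca2, Exo1, Fancd2, Fanci, Lig1, Neil3, Rad51ap1, Rad54b and Rad54l are among the 24. No group could be searched for an outlying sample, because each has 1 array.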

How the results depend on the processing

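With 29 tested members and 1 array a group, a single array can decide a count. In the CD34 sort 1 member was called higher, and 0 were with no filter, after quantile normalization and after median centring; leaving out 1 array gave 0 to 2 higher and 0 to 2 lower. In the Mts24 sort 5 were called higher and 1 lower; with the filter at 4 arrays, which fewer members pass, 3 were called higher, and with no filter 0 were called lower (Lig3, adjusted p = 0.0516). Leaving out 1 array gave 0 to 9 higher and 0 to 1 lower there, 0 to 6 lower in the CD34 minus Mts24 enrichment, and 0 to 3 higher in the interaction. Chek2 did not pass the filter at 4 arrays, or after quantile normalization or median centring, and Rad51c missed the threshold with a trend in the prior (adjusted p = 0.0626). Lig1 passed in the Mts24 sort with no pool block, with the filter at 4 arrays and with a trend. Between genotypes 0 members were called under every alternative run, no pool block included, while the count over all genes was 122 higher and 98 lower with the block, 19 and 22 with no pool block, and 4 to 41 and 1 to 34 with 1 array left out. Over all genes the CD34 minus Mts24 enrichment gave 255 higher and 182 lower, and 139 and 93 with a fixed pool block.

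Some differences that had not passed turned sign when an array was left out. With a CD34 positive array left out, the CD34 estimate rests mainly on the pair of the other genotype. The K14Snail and wild type pairs of Brca2, Exo1, Lig1 and Neil3 had opposite signs in that sort. In the CD34 sort Brca2 was -0.59 without the K14Snail CD34 positive array and 0.17 without the wild type one, Exo1 was -0.50 and 0.43, Lig1 was -0.31 and 0.57, and Neil3 was -0.35 and 0.79, in the same order of arrays. Exo1 was also 0.08 without the wild type CD34 negative array. The interaction of Lig1 was -0.13 without either CD34 positive array and 0.82 without either Mts24 positive array. Among members not called, the sign changed under at least 1 alternative for 18 of 28 in the CD34 sort, 9 of 23 in the Mts24 sort, 11 of 29 in the difference between sorts, 7 of 29 between genotypes and 16 of 29 in the interaction. No paired analysis by replicate number was possible because each group has 1 array; arrays were paired by fraction, a term of the model, and by pool, the block above. Sizes depend on background in the 10 untested members and in Neil3, Chek2, Exo1, Rad51c and Brca2, which reached 7.70 in 2 to 4 arrays. Chek1 lay under 7.70 in the wild type CD34 positive and wild type Mts24 negative arrays, so its differences that use them depend on background too.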
